A study of Mus musculus with 16 samples.

Results

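The Mef2 genes and Mamstr encode a transcription factor family and its coactivator. Chromatin immunoprecipitation sequencing (ChIP-seq) of cultured mouse muscle stem cells was used here to describe MyoD binding and H3K27 acetylation at 4 of these genes, Mef2a, Mef2c, Mef2d and Mamstr, of 21631 protein-coding genes in RefSeq's annotation of GRCm38.p6 (mm10). The genes were taken as a fixed list. For each antibody the peaks of 4 libraries were merged into regions, and a region belonged to a gene if it overlapped the gene body or lay within 50 kb with that gene as the nearest protein-coding gene. This gave 14 of 24420 MyoD regions and 24 of 60038 H3K27ac regions.

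The cells were satellite cells from the hindlimb of C57BL/6 mice, grown in culture and exposed to small interfering RNA for 48 h. The knockdown libraries are labelled LncMyoD-KD, after a long noncoding RNA encoded upstream of Myod1, and the control libraries are labelled control. The treatment text names the same interfering RNA target for every sample, so the reagent given to control cells is unknown here. RNA was not measured, so depletion of LncMyoD was not checked. Antibody-bound DNA was tagmented before sequencing. Each antibody was used on 2 knockdown and 2 control libraries. Whether replicates stand for different mice, different cultures or the same culture is not stated, and their spread may therefore be only technical. Another 8 samples are inputs and were not analysed here. Animal age is not given.

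MEF2 proteins are MADS-box transcription factors that bind A/T-rich sites and act together with MyoD and its relatives to activate muscle genes. Class IIa histone deacetylases hold them in check, calcium-dependent kinases relieve that block, and p38 kinases phosphorylate MEF2 proteins. Mamstr, also called Mastr, is a SAP-domain protein related to myocardin that binds MEF2 and raises its transcriptional activity. H3K27ac marks active promoters and enhancers. MyoD is the basic helix-loop-helix factor that binds E-box sequences and sets muscle identity.

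The lists held 13146 to 17818 MyoD peaks and 39964 to 54082 H3K27ac peaks per library, with the fewest of each antibody in knockdown 2. They hold no read counts, so depth is unknown. A fold enrichment is the linear ratio of signal to background at a peak summit as the authors' caller gave it, and it belongs to its own list. H3K27ac peaks lay within 1 kb of an end of all 8 myogenic marker genes in all 4 libraries, Pax7, Myf5 and Myod1 among them. The other lists gave 1 of 4 endothelial, 1 of 4 immune, 0 of 4 fibro-adipogenic, 2 of 3 smooth muscle and 1 of 3 Schwann markers in all 4 libraries, and Ptprc, Pecam1, Cdh5, Pdgfra, Myh11 and Sox10 had no such peak in any library.

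MyoD was bound at all 4 genes after knockdown and in controls, and at each gene at least 1 MyoD region was called in all 4 libraries. The strongest sites were at the start of Mamstr, with a fold enrichment of 40.5 and 31.7 in the knockdown libraries against 36.02 and 31.8 in the controls, and upstream of Mef2a, with 34.6 and 34.9 in the knockdown against 19.3 and 27.5 in the controls. Mef2c and Mef2d held weaker sites. No region of either antibody at these genes was called in both libraries of 1 group and in neither of the other. Of the 14 MyoD regions, 0 were knockdown-only and 0 were control-only, where 0.725% and 4.53% of all MyoD regions were. Of the 24 H3K27ac regions, 0 were knockdown-only and 0 were control-only, against 0.768% and 1.46% of all H3K27ac regions. At those background shares a set of this size would hold few or no such regions.

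**Figure D1:**
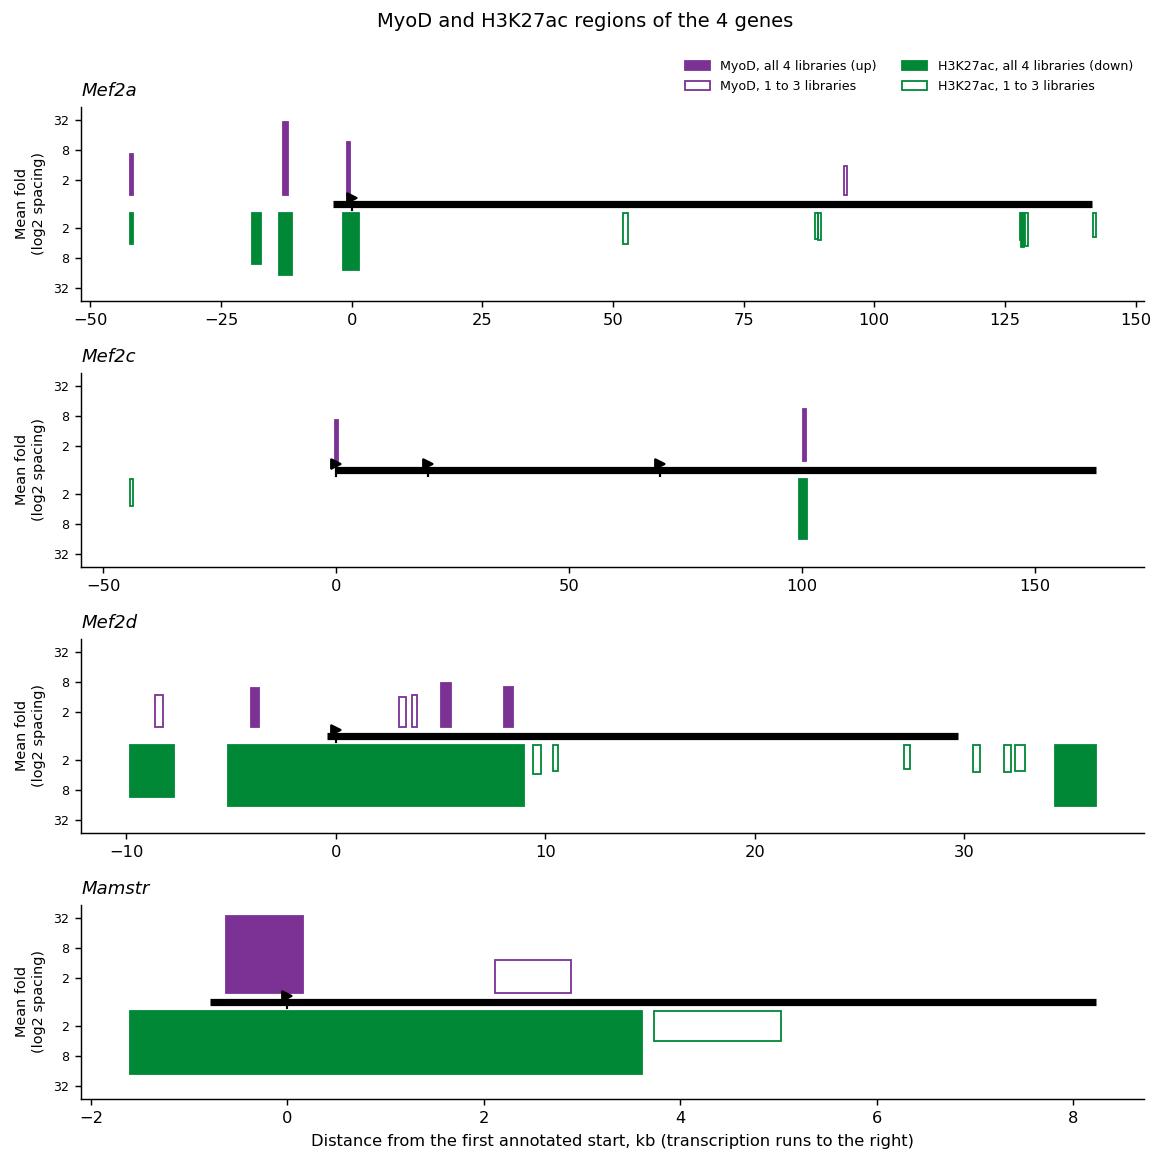
MyoD regions (upward bars) and H3K27ac regions (downward bars) at the 4 genes, by distance in kb from the first annotated start. Bar height is the mean fold enrichment over the libraries with a peak, filled bars were called in all 4 libraries, black lines are gene bodies and arrowheads annotated starts. Bars mark the region's extent, and the narrowest are drawn wider so that they can be seen. The tall MyoD bars are the Mamstr start and the site 12.7 kb upstream of Mef2a, and the first start of Mef2c has a MyoD bar with no H3K27ac bar.

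Mef2a, on chromosome 7 (67231163 to 67376456, minus strand, a body of 145 kb), encodes a MEF2 factor found widely outside muscle as well as in it. It held 4 MyoD regions and 11 H3K27ac regions, of which 3 and 5 were called in all 4 libraries. Its strongest MyoD region lay between genes, centred 12.7 kb upstream of the annotated start (67384999 to 67386035), with the fold values given above. The gene body as annotated reaches upstream of that start, and this site was 8.54 kb from the body. Both knockdown libraries were above both controls there, and the lowest value, 19.3, was in control 1. Ranked by fold within each library among the 9958 MyoD regions of all 4 libraries, this site stood at place 23 and 10 in the knockdown libraries and at 486 and 75 in the controls.

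The H3K27ac region around that site (67384249 to 67386795) had values of 18.2 and 16.4 in the knockdown and 16.4 and 18.6 in the controls, so the groups overlapped. The H3K27ac summits of all 4 libraries lay 12.602 to 12.607 kb upstream of the start. The MyoD summits were 160 to 210 bp away from them in the knockdown libraries and 135 to 174 bp away in the controls.

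A second MyoD region lay at the Mef2a start (67373202 to 67373783), inside the gene body as annotated and centred 0.634 kb upstream of the listed start. Its values were 10.7 and 10.97 in the knockdown and 10.6 and 13.6 in the controls, which overlap. The H3K27ac region over the start (67371534 to 67374452) reached 16.3 and 10.3 in the knockdown and 12.8 and 15.7 in the controls, also overlapping. Another constant MyoD region was centred 42.2 kb upstream (67414824 to 67415250) and was weaker in the knockdown lists, at 5.53 and 4.40 against 7.27 and 9.27 in the controls. Its place among the 9958 regions was 8492 and 9554 in the knockdown libraries and 6516 and 4069 in the controls. The H3K27ac region at the same place (67414618 to 67415220) went the other way by a small margin, with 4.55 and 4.21 in the knockdown and 3.53 and 4.14 in the controls. The last MyoD region, 94.5 kb inside the gene (67278271 to 67278515), was called in knockdown 2 (2.80) and control 1 (4.72) only, with the nearest H3K27ac region 4.57 kb away.

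The second H3K27ac region with all knockdown values above all control values was centred 18.2 kb upstream of Mef2a (67390123 to 67392019), at 12.4 and 12.1 in the knockdown and 7.13 and 10.4 in the controls. It overlapped no MyoD region. Deep inside the gene body, a region 128 kb downstream of the start (67244184 to 67244640) was called in all 4 libraries at the lower values of 5.09 and 5.23 in the knockdown and 3.16 and 5.49 in the controls. The remaining 6 H3K27ac regions of Mef2a were called in 1 to 3 libraries, and the highest value among them was 5.28, in knockdown 1. In 2 of the 6 a peak was called in 3 libraries, and in both it was missing in knockdown 2.

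The annotated Mef2a start carries a match to the MEF2 consensus itself. The sequence is shown because this gene encodes a factor that binds such sites. The stretch below is from RefSeq, GRCm38.p6, chr7:67372841-67372870, minus strand, and capitals mark the match.
Mef2a: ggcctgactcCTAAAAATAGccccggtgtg
The match spans the base 2 before the start to base 8 after it. The MEF2 consensus (both strands searched, named only) occurs in 3.19% of 32851 windows of 300 bases around annotated starts, and the exact letters CTAAAAATAG on either strand in 0.110%. The Mef2a window held no E-box (CANNTG, the same on both strands), which 72.3% of the windows hold. The match lay outside the MyoD region, which began 0.344 kb from the start. A match is a description of letters and not a bound site.

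Mef2c, on chromosome 13 (83504017 to 83667079, plus strand, a body of 163 kb), encodes a MEF2 factor needed in heart and skeletal muscle. It held 2 MyoD regions, both called in all 4 libraries, and 2 H3K27ac regions, of which 1 was. The MyoD region over the first annotated start (83503975 to 83504371) had values of 4.42 and 6.27 in the knockdown and 8.26 and 7.24 in the controls. Both knockdown values were below both control values, with knockdown 1 lowest, although knockdown 1 held more MyoD peaks than knockdown 2. Its place was 9534 and 6773 of 9958 in the knockdown libraries and 5341 and 6766 in the controls, so knockdown 2 and control 2 stood almost level by rank.

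No H3K27ac peak overlapped this site in any library. The nearest H3K27ac region to it was 43.8 kb away and was called only in knockdown 1 (3.82) and control 2 (3.26). Among all constant MyoD regions 11.5% overlapped no H3K27ac peak, and of the 9 at these genes this was the 1 that did so. The other annotated starts of Mef2c, 19.6 and 69.6 kb downstream, had no region of either antibody over them. The nearest H3K27ac region to the start farthest downstream was 29.7 kb away.

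The acetylated part of Mef2c lay inside the gene, 100 kb downstream of the first start, where the noncoding gene Gm52043 overlaps it. The H3K27ac region there (83603270 to 83605093) had values of 16.4 and 14.7 in the knockdown and 15.1 and 18.1 in the controls. The MyoD region within it (83604297 to 83604711) had 12.2 and 9.80 in the knockdown and 11.9 and 9.94 in the controls. Groups overlapped in both readouts. The summits of MyoD and H3K27ac were 209 to 231 bp apart in the knockdown libraries and 221 to 313 bp apart in the controls.

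The 250 bases before the first Mef2c start are shown because the MyoD region, which had no H3K27ac peak, covered the end of this stretch nearest the start (RefSeq, GRCm38.p6, chr13:83503784-83504033, plus strand). Capitals mark the E-boxes.
Mef2c: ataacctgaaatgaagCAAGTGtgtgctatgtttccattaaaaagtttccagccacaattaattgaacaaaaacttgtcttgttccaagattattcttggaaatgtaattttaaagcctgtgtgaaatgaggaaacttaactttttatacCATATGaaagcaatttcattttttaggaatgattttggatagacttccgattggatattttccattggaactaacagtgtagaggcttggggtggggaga
The E-boxes CAAGTG and CATATG begin 234 and 100 bases before the start. Neither lay inside the MyoD region. Neither is CAGCTG, a form that MyoD is known to prefer, which is in 16.3% of the windows. CAGGTG or CACCTG, the same site on opposite strands, is in 20.2% of the windows, and neither E-box has that form. The MyoD summits lay 90 and 217 bp after the start in the knockdown libraries and 47 and 139 bp after it in the controls. All were beyond the stretch shown, and only that of control 1 fell within the searched window. The part of the MyoD region beyond the window was not read, so whether it holds an E-box is unknown here. The noncoding gene Gm33317 starts close by on the opposite strand.

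Mef2d, on chromosome 3 (88141941 to 88172091, plus strand, a body of 30.2 kb), encodes the MEF2 factor whose splice form switches during muscle differentiation. It was the most broadly acetylated of the 4 genes. An H3K27ac region of 14156 bp (88137213 to 88151368) ran across the start and into the gene, at place 58 by width among the 60038 H3K27ac regions, whose median width was 639 bp. Its highest values were 17.8 and 15.7 in the knockdown and 15.6 and 18.1 in the controls, which overlap. The region held 5 of the 6 MyoD regions of Mef2d, and 3 of those 5 were called in all 4 libraries. At least 5 MyoD regions, called in any number of libraries, were found in 34 of the 60038 H3K27ac regions (0.0566%). That share is over regions of every width and was not matched to the width of this one.

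The MyoD sites of Mef2d were weak and lay beside the start, not over it. The nearest to the start was 3.01 kb away. The region centred 3.87 kb upstream (88138303 to 88138707) had values of 6.999 and 6.27 in the knockdown and 5.36 and 5.63 in the controls, all knockdown values above all control values. The region 5.25 kb downstream (88147382 to 88147871) had 9.95 and 5.09 in the knockdown and 9.91 and 5.62 in the controls. It differed by replicate number, with knockdown 1 and control 1 above knockdown 2 and control 2, and groups overlapped. The region 8.24 kb downstream (88150384 to 88150835) had 6.68 and 5.09 in the knockdown and 7.93 and 5.96 in the controls, again overlapping. Replicate numbers were ordered in the same way here, and within each number the knockdown value was the lower. Whether replicate number stands for a shared culture is unknown here.

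Of the other MyoD regions of Mef2d, 1 lay 8.45 kb upstream (88133723 to 88134118), with values of 4.79 and 4.70 in the knockdown and 3.64 in control 2, and no peak in control 1. It sat in an H3K27ac region of all 4 libraries (88132526 to 88134622), with 12.7 and 8.03 in the knockdown and 11.7 and 11.5 in the controls. The remaining pair, 3.17 and 3.75 kb downstream, was called in knockdown 1 and control 2 (4.12 and 3.97) and in control 1 alone (4.30).

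An H3K27ac region of all 4 libraries lay 4.62 kb beyond the 3′ end of Mef2d (88176708 to 88178652), with 19.8 and 14.7 in the knockdown and 16.2 and 17.8 in the controls. It overlapped no MyoD region and covered the start of the noncoding gene 1700113A16Rik, which runs towards Mef2d from the opposite strand. The region belongs to Mef2d here only because it is the nearest protein-coding gene. Of all H3K27ac regions called in all 4 libraries 55.3% overlapped no MyoD region. The 6 H3K27ac regions of Mef2d called in 1 or 2 libraries had values between 3.02 and 4.21.

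Mamstr, on chromosome 7 (45639192 to 45648207, plus strand), is the shortest of the 4 genes at 9.02 kb. By mean fold over the 4 libraries it carried the strongest MyoD site. The region over its start (45639349 to 45640132) ranked 11 of 9958 by mean fold over the 4 libraries. By library it stood at place 6 and 22 in the knockdown and at 9 and 31 in the controls. The fold values of 40.5 and 31.7 in the knockdown and 36.02 and 31.8 in the controls overlapped. The MyoD summits lay 266 and 272 bp before the listed start in the knockdown libraries and 249 and 291 bp before it in the controls. The gene body as annotated begins upstream of that start, so the whole region and its summits lay inside the body.

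The H3K27ac region of Mamstr (45638371 to 45643581) spanned 5211 bp and also touched the 3′ end of Rasip1 and the start of the noncoding gene A030001D20Rik, so its signal is not that of Mamstr alone. It reached 18.7 and 17.5 in the knockdown and 16.9 and 21.9 in the controls. Its summits lay 518 to 528 bp before the start in all 4 libraries, 252 and 262 bp from the MyoD summits in the knockdown and 227 and 274 bp in the controls. A second MyoD region 2.50 kb downstream (45642085 to 45642864) was called in knockdown 1 (4.79) and control 2 (4.31). A second H3K27ac region (45643711 to 45645006) lacked a peak in knockdown 2 and had 4.37 in knockdown 1, against 3.35 and 4.14 in the controls.

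The sequences below lie inside the MyoD region over the start (RefSeq, GRCm38.p6, plus strand). They are shown because it was the strongest of the 4 genes by mean fold. The first gives the 250 bases before the Mamstr start, chr7:45639727-45639976, and the second 30 bases after it, chr7:45639990-45640019, with an E-box in capitals.
Mamstr upstream: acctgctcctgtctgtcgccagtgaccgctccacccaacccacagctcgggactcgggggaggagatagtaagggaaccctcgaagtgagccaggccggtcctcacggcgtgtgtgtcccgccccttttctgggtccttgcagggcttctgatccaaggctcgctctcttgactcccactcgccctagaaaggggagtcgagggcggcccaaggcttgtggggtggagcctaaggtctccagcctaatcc
Mamstr site: cgcttcaaggcaCAGCTGagtagctgagag
The E-box CAGCTG began at base 26, counting the start as base 1, and its centre lay 299.5 and 293.5 bp from the MyoD summits of the knockdown libraries and 318.5 and 276.5 bp from those of the controls. The upstream 250 bases held no CANNTG. The summits of 3 of the 4 libraries lay beyond the upstream end of this window, and the bases under them were not used here. The Mef2d window held neither an E-box nor a MEF2 consensus.

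**Figure D2:**
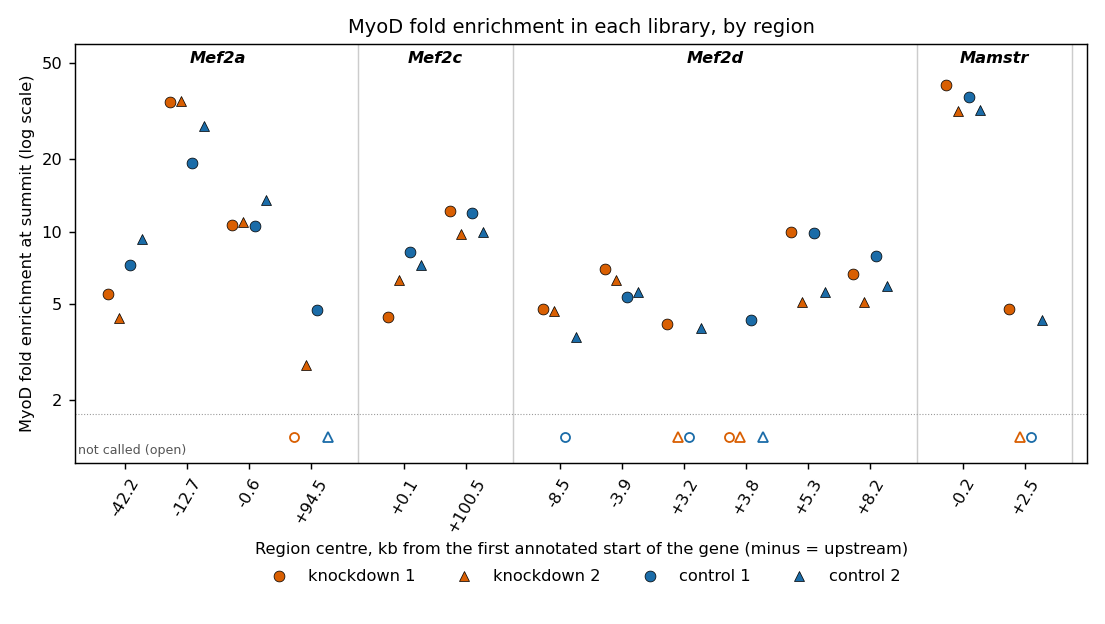
MyoD fold enrichment (log axis) in each library at the 14 MyoD regions, ordered by distance in kb from the first start of each gene; open symbols stand for no called peak. The knockdown symbols lie above the controls 12.7 kb upstream of Mef2a and 3.9 kb upstream of Mef2d, and below them 42.2 kb upstream of Mef2a and at the Mef2c start.

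The genes were ordered in each library by their highest MyoD value. Mamstr came before Mef2a in knockdown 1, control 1 and control 2, and Mef2a before Mamstr in knockdown 2 (34.9 against 31.7), so these genes were not separated beyond the spread. Mef2c and Mef2d followed, in that order, in all 4 libraries. The highest values of Mef2c were 12.2 and 9.80 in the knockdown and 11.9 and 9.94 in the controls, and those of Mef2d were 9.95 and 6.27 in the knockdown and 9.91 and 5.96 in the controls, ranges that overlap. The highest H3K27ac values of the 4 genes all lay between 14.7 and 21.9 over the libraries. Within each library Mef2c was lowest, level with Mef2d in control 2 (18.1 each). Mamstr was highest except in knockdown 1, where Mef2d was (19.8 against 18.7). The highest H3K27ac values of Mef2d in knockdown 1 (19.8) and control 1 (16.2) came from the region beyond its 3′ end, over the start of 1700113A16Rik. Those of Mamstr came from the region that also touched Rasip1 and A030001D20Rik.

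**Figure D3:**
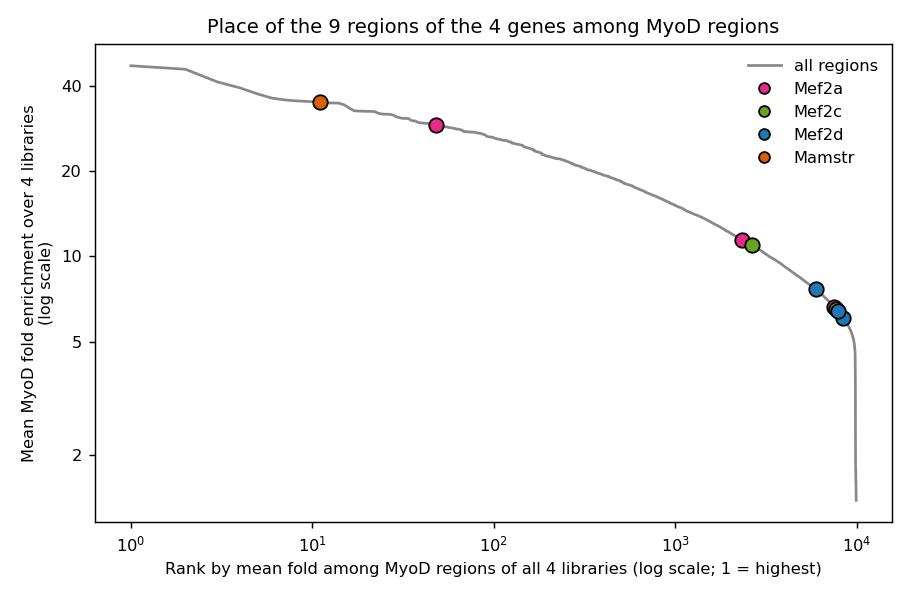
Mean MyoD fold enrichment over the 4 libraries against rank (both log axes) for all 9958 MyoD regions called in all 4 libraries (line), with the 9 regions of the 4 genes as points. Mamstr at rank 11 and the upstream Mef2a site at rank 48 are near the top, and the Mef2d points lie at ranks 5958 to 8458.

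Over the 4 genes, 9 of 14 MyoD regions (64.3%) and 10 of 24 H3K27ac regions (41.7%) were called in all 4 libraries, against 40.8% and 43.5% of all regions of those antibodies. Of the 9 constant MyoD regions 8 overlapped an H3K27ac peak in all 4 libraries (88.9%), against 73.6% of all such MyoD regions. In the 9 constant MyoD regions both knockdown values exceeded both control values at 2, against 10.4% of all constant regions, and were below them at 2, against 21.0%. Among the 10 constant H3K27ac regions the counts were 2 higher and 0 lower, against 14.1% and 9.30% of all. With 9 and 10 regions each count is within a few regions of its background share, and no test was made on it. Of the 4 MyoD sites named by these counts, the site 42.2 kb upstream of Mef2a and the Mef2c start did not reach a −log10 q of 5 in every library, since the value was 3.60 in knockdown 2 at Mef2a and 3.71 in knockdown 1 at Mef2c.

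The regions called in fewer than 4 libraries were weak. The highest fold value was 4.79 for MyoD and 5.28 for H3K27ac. For H3K27ac, 10 of these 14 regions had a peak in knockdown 1 and 1 in knockdown 2, against 4 in control 1 and 10 in control 2. All 3 H3K27ac regions present in 3 libraries lacked the peak in knockdown 2, the library with the fewest H3K27ac peaks. Of all 60038 H3K27ac regions, 80.7% had a peak in knockdown 1 and 48.0% in knockdown 2, against 62.5% in control 1 and 73.6% in control 2. Low presence in knockdown 2 was thus shared with the whole list and is not particular to these genes.

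The number of regions with a peak was then compared between groups for each gene. For MyoD the counts were 3 and 4 in the knockdown and 4 and 3 in the controls at Mef2a, 2 in every library at Mef2c, 5 and 4 in the knockdown and 4 and 5 in the controls at Mef2d, and 2 and 1 in the knockdown and 1 and 2 in the controls at Mamstr. The mean difference was 0 at each gene. For H3K27ac, Mef2a averaged 7.0 ± 2.83 regions in the knockdown and 8.5 ± 0.707 in the controls (SD, n = 2 each), Mef2d 5.5 ± 2.12 in the knockdown and 5.0 ± 2.83 in the controls, Mamstr 1.5 ± 0.707 in the knockdown and 2.0 ± 0 in the controls, and Mef2c 1.5 ± 0.707 in each group. All 8 differences were no larger than the larger SD of the groups compared (two-sided exact permutation p = 1 each, Benjamini-Hochberg adjusted p = 1). The smallest p this design allows is 0.333, so the test could not reach 0.05. The H3K27ac difference at Mef2a, −1.5 regions, was 0.5 without knockdown 2, and that at Mef2d, 0.5, was −1 without knockdown 1 and −1.5 without control 1.

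**Figure D4:**
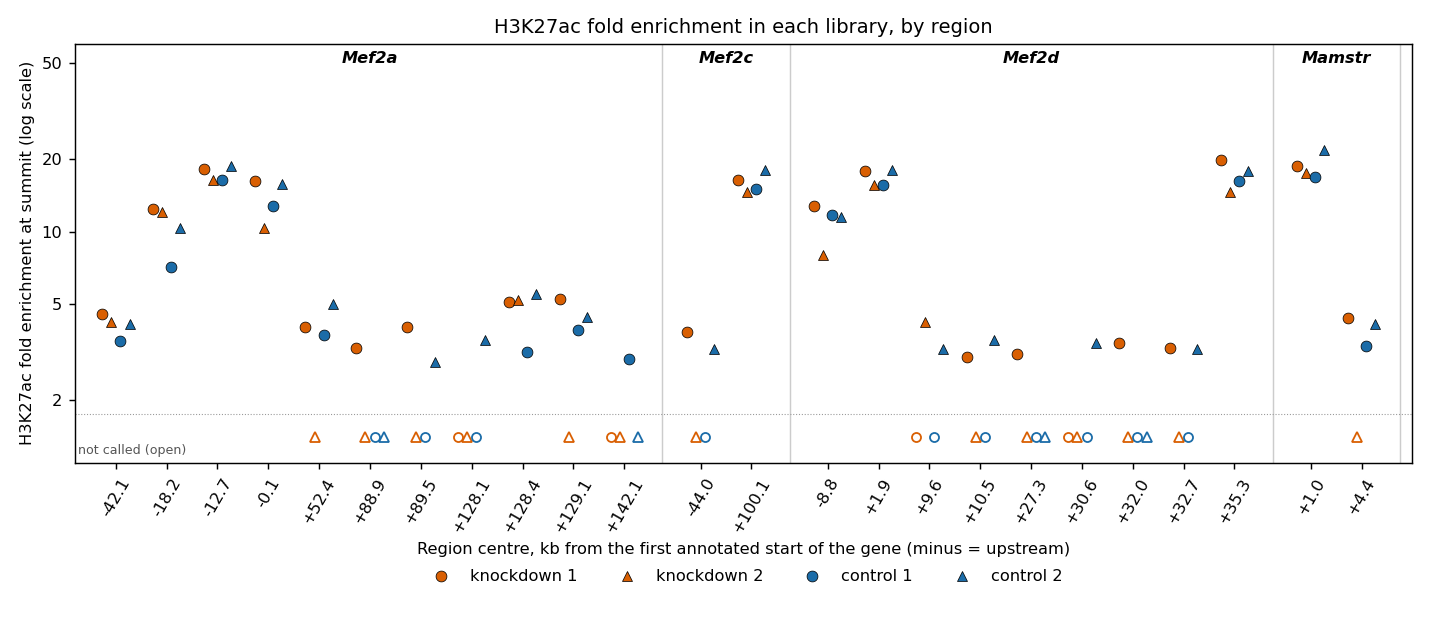
H3K27ac fold enrichment (log axis) in each library at the 24 H3K27ac regions, ordered by distance in kb from the first start; open symbols stand for no called peak. Knockdown 2 (open orange triangles where not called) had a peak at 11 of the 24 regions, and the regions above a fold of 7 were called in all 4 libraries.

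**Figure D5:**
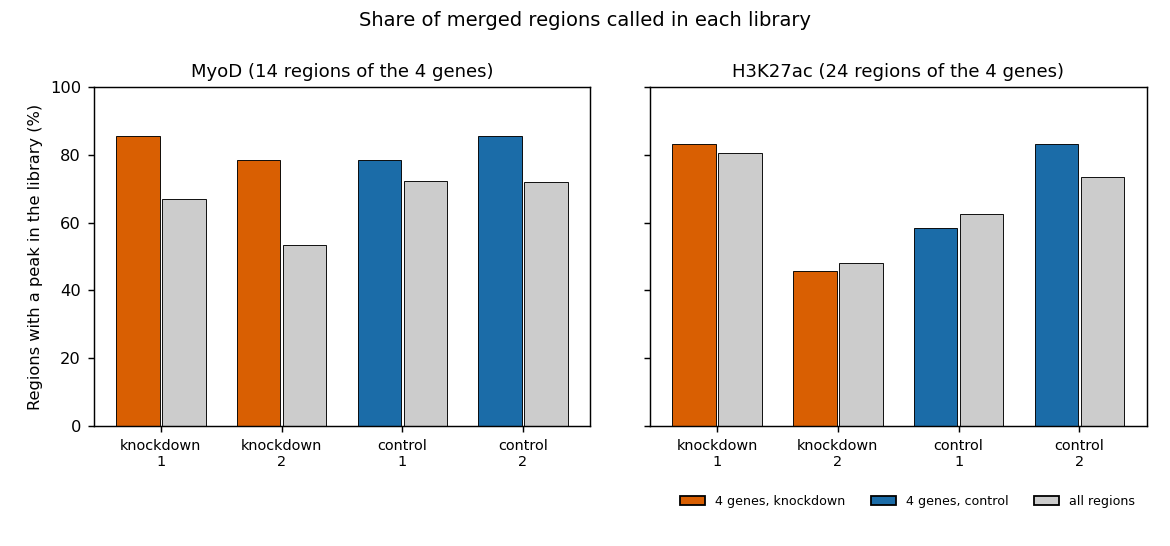
Share of merged regions with a peak in each library, for the 4 genes (coloured bars) and for all regions (grey bars). For MyoD the 4 genes stood at 78.6% to 85.7% in all libraries, while all regions fell to 53.3% in knockdown 2; for H3K27ac the coloured bars follow the grey ones, with 45.8% and 48.0% in knockdown 2.

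Covered length gave a second measure of the same loci. Called MyoD peaks covered 1.69 and 1.93 kb at Mef2a in the knockdown and 1.92 and 1.91 kb in the controls. At Mamstr they covered 1.35 and 0.581 kb in the knockdown and 0.621 and 1.399 kb in the controls, the lower values being the libraries without the downstream peak. H3K27ac peaks covered 19.2 and 16.8 kb at Mef2d in the knockdown and 17.4 and 18.1 kb in the controls, and 2.07 and 1.44 kb at Mef2c in the knockdown and 1.60 and 1.85 kb in the controls. Knockdown 2 had the least H3K27ac cover at all 4 genes, and the whole list of that library covers 37.6 Mb, against 47.3 to 57.5 Mb in the other 3.

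By the covered length of both antibodies in the 8 libraries (Euclidean distance of log2(kb + 0.1)), the genes most like Mef2a were Dyrk2 (0.36), Dok7 (0.39) and Map3k20 (0.42). Those most like Mef2c were Tox (0.34), Bco1 (0.39) and Zfp869 (0.42). Those most like Mef2d were Piezo1 (0.40), Lamb3 (0.41) and Afap1 (0.45), and those most like Mamstr were Ckb, the brain-type creatine kinase gene, at 0.58, Ap1b1 (0.66) and Sh3rf1 (0.68).

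The other genes of the pathway were counted by the same rule in lists of 50 genes. In all they held 147 MyoD regions, of which 72 were called in all 4 libraries (49.0%, against 40.8% of all MyoD regions). Of these 147, 0 were knockdown-only, against 0.725% of all, and 8 were control-only (5.44%, against 4.53% of all). The lists held 414 H3K27ac regions, of which 184 were called in all 4 libraries (44.4%, against 43.5% of all H3K27ac regions). Of these 414, 3 were knockdown-only (0.725%, against 0.768% of all) and 7 were control-only (1.69%, against 1.46% of all). By list, the control-only share of MyoD regions lay between 4.0% in coactivators and 7.89% in kinases and phosphatases, from 1 to 3 regions a list. That of H3K27ac regions was 4.76% in coactivators (4 of 84), 2.29% in kinases and phosphatases (3 of 131) and 0% in the other lists. No test was made on these shares.

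Among MEF2 relatives and cofactors of serum response factor, 5 genes held 18 MyoD and 51 H3K27ac regions. Mef2b, the other MEF2 gene, had no H3K27ac region and a single MyoD region, overlapping the gene (chromosome 8, 70158276 to 70158876), without a peak in the knockdown libraries and with 4.30 and 3.97 in the controls. This was the control-only MyoD region of that list, and weak. Mrtfb, a cofactor of serum response factor, had the most constant MyoD regions, 4, followed by Mrtfa with 2.

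The 7 repressor genes held 19 MyoD and 52 H3K27ac regions, with 1 control-only MyoD region, at Hdac1 (8.26 and 6.29 in the controls). Hdac4, a class IIa deacetylase that binds MEF2, had 3 constant MyoD regions, with highest values of 15.5 and 19.99 in the knockdown and 17.2 and 20.5 in the controls. Hdac5, of the same class, had 2, with highest values of 12.2 and 10.2 in the knockdown and 10.3 and 9.60 in the controls. The 8 coactivator genes held 25 MyoD and 84 H3K27ac regions. Control-only regions lay at Ep300 for MyoD (5.95 and 6.62 in the controls), and for H3K27ac at Ncoa2 and at Smarca4, a chromatin remodelling ATPase, which had 3. Vgll2, a cofactor of TEAD factors, led this list with 5 constant MyoD regions, followed by the 3 each of Ncoa2 and Wwtr1.

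The 10 kinase and phosphatase genes held 38 MyoD and 131 H3K27ac regions. Akap13, an anchoring protein with exchange factor activity, had 2 control-only MyoD regions, 1 control-only and 2 knockdown-only H3K27ac regions and the most constant MyoD regions of the list, 5. Ppp3ca, a calcineurin catalytic subunit, had a control-only MyoD region, and Camk2g and Sik1 each had a control-only H3K27ac region. Sik1, a kinase that phosphorylates class IIa deacetylases, had 4 constant MyoD regions, with highest values of 21.99 and 18.4 in the knockdown and 21.1 and 18.9 in the controls.

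The 20 muscle target genes held 47 MyoD and 96 H3K27ac regions. Control-only MyoD regions lay at Pygm, muscle glycogen phosphorylase (5.36 and 4.97 in the controls), and at Xirp2, an actin-binding protein gene (5.62 and 5.96), and the knockdown-only H3K27ac region at Myog (2.51 and 4.21 in the knockdown). Myod1 had the most constant MyoD regions, 5. Des, Klhl31, Ppargc1a and Myl1 followed with 3 each, and Klhl31, which encodes a muscle kelch protein, had highest values of 28.0 and 31.3 in the knockdown and 28.7 and 26.8 in the controls. Ckm, the muscle creatine kinase gene, is named after its values were seen: it had no region of either antibody.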

How the data were processed

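MyoD and H3K27ac ChIP-seq was analysed from 8 peak lists, 1 for each library and not pooled. The submitters' processing notes name mm10 and, as tools without stated roles, MACS2 2.1.1, bedtools 2.26.0, Bowtie2 2.3.2, SAMtools 1.3 and Picard 2.9.2. Their options, and which input served which library, are unknown here. Per the deposited lists, each peak carries a fold enrichment over background (a linear ratio by the authors' caller), −log10 of p and q, and a score that is the whole part of 10 times −log10 q. No deposited peak had a −log10 q under 1.30, so a missing peak means below that limit and not absent signal. Lists hold no counts, so no interval or floor is given, and no fold was tested between libraries.

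Peaks of an antibody were merged where they overlapped or touched (gap 0 bp, at least 1 shared base for presence) in Python 3.11.15 with pandas 2.3.3. Merging and presence calls were checked on simulated peak lists with regions spaced apart. Folds, ranks, overlap of the antibodies and sequence matches were not checked in this way. A region's fold is the highest of its peaks in that library. A constant region was called in all 4 libraries. A knockdown-only region had a peak in both knockdown libraries and neither control, a control-only region the reverse. Start sites and windows of 250 bases before to 50 after them came from RefSeq, GRCm38.p6. Region numbers per gene were compared by the exact permutation test, adjusted over 8 comparisons.

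The 4 genes, the pathway lists and the marker lists were chosen with earlier results of these data known, and the genes named from the lists are those with a region called in 1 group only and, per list, the 2 or more with the most constant MyoD regions; Ckm falls outside this rule. Of 51 pathway symbols 50 were used; Taz was left out because in RefSeq it names tafazzin. Alternatives covered the peak threshold, peak number, merge gap, overlap, assignment, each library left out, and replicate number as a block. No 2 lists of an antibody shared an identical peak.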

Additional observations from a re-analysis of the deposited data

How the results depend on the processing

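No region of the 4 genes was specific to 1 group under the stricter threshold, equal peak numbers, the 1000 bp merge gap, a required cover of 50%, gene body only or the 100 kb flank. With a library left out, unlike sets are compared, and 1 to 4 H3K27ac and 0 to 2 MyoD regions were. With a −log10 q of at least 5, 5 MyoD regions were called in all 4 libraries in place of 9, and 5 in place of 8 overlapped H3K27ac in every library; the MyoD difference was −1 at Mef2a (exact permutation p = 0.667), −0.5 at Mef2c and −1 at Mef2d, all 0 in the report, and −0.5 at Mef2c also with equal peak numbers. The H3K27ac differences at Mef2a (−1.5) and Mamstr (−0.5) were 0.5 each with that threshold and 0.5 each with 50% cover; the cause was not tested. Leaving out a library gave H3K27ac differences of −3 to 0.5 at Mef2a, −1.5 to 2.5 at Mef2d and −1.5 to 0 at Mamstr. Limited to gene bodies, fewer regions are counted: 5 constant H3K27ac regions in place of 10, and 5 MyoD regions with H3K27ac in every library in place of 8. The same replicate numbers do not show shared cultures; with replicate number as a block the differences were the same, with exact p = 1 for the H3K27ac value of −1.5 at Mef2a and for the other 7. The deviations of same-numbered libraries correlated at 0.155 for H3K27ac and 0.103 for MyoD across constant regions, which are not replicates. Depth is unknown, so a site of low fold without a peak cannot be called unbound.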
